A study of Mus musculus with 24 samples.

Results

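The Cyp3a oxidases described here are 6 mouse genes of cytochrome P450 family 3A, Cyp3a11, Cyp3a13, Cyp3a16, Cyp3a25, Cyp3a41a and Cyp3a44, among 18634 genes tested in liver. They were taken by gene name from the spots that are not controls, each with the probe of highest mean Cy5 signal, and all 6 were found. Each had 1 probe printed as 1 spot, and all 6 probes were well above background in both channels on all 24 arrays, with no saturated spot. All 6 therefore passed the filter on dim probes. The Cy5 spot of Cyp3a41a was flagged as found by the scanner software on 21 arrays, and the spots of the other members on all 24.

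The livers came from 24 mice of strain C57BL/6JRcc, labelled female, 12 fed GLU+GAL and 12 fed GLU. The substrain is not settled, since the labels name different ones for the Cy5 and Cy3 channels. From weaning at 3 weeks of age the mice ate a semi-synthetic diet for 3 weeks. It gave 32% of energy as starch, 32% as monosaccharides, 20% as protein and 16% as fat. In GLU+GAL the monosaccharides were galactose and glucose, 1:1, and in GLU there was only glucose. Mice lived singly and were killed at 6 weeks of age, food-deprived and in the light phase, and RNA was taken from the right liver lobe. Each mouse gave 1 Agilent array, on which its Cy5-labelled RNA was hybridised against a Cy3-labelled pool of all mice, with no dye swap. A level below is the log2 ratio of a mouse's Cy5 signal to the Cy3 signal of the pool, so 0 stands for the pool. It can be compared between mice for 1 probe and not between probes.

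Cyp3a enzymes are haem proteins of the endoplasmic reticulum that oxidise steroids, bile acids and many drugs, with electrons passed on by cytochrome P450 oxidoreductase (Por). Hepatocytes express them most, and the xenobiotic receptors PXR (Nr1i2) and CAR (Nr1i3), partnered by RXR (Rxra), raise their transcription when activated. In mice Cyp3a11 is a main adult hepatic form, Cyp3a16 is known for its expression early in life, Cyp3a41a and Cyp3a44 are female-predominant in adults under the control of growth hormone, Cyp3a25 is an adult hepatic form, and Cyp3a13 is also known from the intestine.

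On the 24 arrays, 46.6% to 51.3% of probes were well above background in Cy5. All 12 hepatocyte markers were well above background on every array, as were all 11 Kupffer cell, 7 endothelial and 8 stellate cell markers. Of 7 small intestine markers 5 were below it on every array, and none of 8 kidney and adrenal markers was above it on all. GLU+GAL 12 went against its label of female: Y-linked transcripts (Eif2s3y, Ddx3y) were well above background and Xist, the RNA of the inactive X, was not. It is called the array labelled GLU+GAL 12. The pool channel of GLU+GAL 4 correlated least with those of the other arrays, at a median of 0.968, against 0.990 for the next lowest. Each of 3 slides held 8 arrays, 4 of each diet.

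The letters of these genes matter for what each probe measured, because members of the family resemble each other. The Cyp3a11 probe, on mouse chromosome 5, is linked by the array's own annotation to transcripts of Cyp3a11, Cyp3a41b, Cyp3a41a and Cyp3a44, so part of its signal may come from these relatives. The Cyp3a41a probe is also linked to Cyp3a41b and the Cyp3a25 probe to Cyp3a59. The probes of Cyp3a13, Cyp3a16 and Cyp3a44 are linked to 1 gene each. The Cyp3a25 probe and that of Cyp3a57, a further Cyp3a gene on the array, align over 52 bases of which 49 are identical. They differ by G17T, T47C and A49G, with the Cyp3a25 base first and positions counted from 1 at the start of the 52 bases. The Cyp3a11 probe is shown for its multiple targets, and the shared stretches are shown with the differing bases in capitals. Coordinates of the probes are not printed, since their build is not given in the files.
Cyp3a11 probe: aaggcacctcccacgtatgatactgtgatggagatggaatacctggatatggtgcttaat
Cyp3a25 probe, shared stretch: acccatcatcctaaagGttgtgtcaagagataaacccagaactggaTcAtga
Cyp3a57 probe, shared stretch: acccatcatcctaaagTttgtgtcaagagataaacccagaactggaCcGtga

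The promoters show how near the members are to each other before the start of transcription. The sequences are from RefSeq, build GRCm38.p6, 250 bases ending just before the annotated start, read on the gene's own strand, which is the minus strand of chromosome 5 for the 5 genes shown. Capitals mark CAAAGTCCA, a motif of the kind bound by the liver factor HNF4, and ATCAAT, of the kind bound by HNF6 (Onecut1), neither of which is in Cyp3a25. The 4 promoters of Cyp3a11, Cyp3a16, Cyp3a41a and Cyp3a44 and that of Cyp3a25 are shown because the transcripts behind them varied together to different degrees. They lie at chr5:145879855-145880104 (Cyp3a11), chr5:145469724-145469973 (Cyp3a16), chr5:145720137-145720386 (Cyp3a41a), chr5:145805875-145806124 (Cyp3a44) and chr5:146009619-146009868 (Cyp3a25).
Cyp3a11: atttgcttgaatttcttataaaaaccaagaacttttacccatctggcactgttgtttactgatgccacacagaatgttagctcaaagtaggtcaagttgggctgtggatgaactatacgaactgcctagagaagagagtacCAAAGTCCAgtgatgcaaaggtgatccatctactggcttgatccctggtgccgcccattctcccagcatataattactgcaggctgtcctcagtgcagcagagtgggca
Cyp3a16: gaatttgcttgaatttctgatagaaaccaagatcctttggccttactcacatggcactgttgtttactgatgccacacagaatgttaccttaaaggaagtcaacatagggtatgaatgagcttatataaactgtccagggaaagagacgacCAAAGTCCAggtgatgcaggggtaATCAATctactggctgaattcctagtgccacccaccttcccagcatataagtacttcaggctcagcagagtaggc
Cyp3a41a: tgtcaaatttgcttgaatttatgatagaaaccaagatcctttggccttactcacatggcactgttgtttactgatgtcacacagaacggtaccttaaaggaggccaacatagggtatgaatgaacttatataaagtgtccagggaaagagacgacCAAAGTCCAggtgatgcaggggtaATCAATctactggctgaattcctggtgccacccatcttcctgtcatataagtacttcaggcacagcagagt
Cyp3a44: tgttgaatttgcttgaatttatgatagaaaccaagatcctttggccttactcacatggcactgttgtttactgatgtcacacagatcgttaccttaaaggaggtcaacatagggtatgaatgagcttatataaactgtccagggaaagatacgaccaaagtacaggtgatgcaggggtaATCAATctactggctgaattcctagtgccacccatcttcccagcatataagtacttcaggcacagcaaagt
Cyp3a25: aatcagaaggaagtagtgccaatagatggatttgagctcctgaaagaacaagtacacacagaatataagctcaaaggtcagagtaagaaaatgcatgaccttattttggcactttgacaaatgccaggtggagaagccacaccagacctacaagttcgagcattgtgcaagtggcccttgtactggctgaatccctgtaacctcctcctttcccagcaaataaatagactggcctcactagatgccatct

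In a global alignment the promoters of Cyp3a41a and Cyp3a44 were 94.4% identical, those of Cyp3a16 and Cyp3a44 92.9%, and those of Cyp3a16 and Cyp3a41a 91.3%. The Cyp3a11 promoter was 72.5% to 76.6% identical to these 3. The Cyp3a25 promoter was 54.3% to 57.4% identical to the 4 above, and that of Cyp3a13 52.7% to 58.0% identical to the other members. Cyp3a25 was closest to the genes Cyp3a59 (94.8%) and Cyp3a57 (88.9%), which are not members.

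On either strand, CAAAGTCCA was found in 3 of 6 members, Cyp3a11, Cyp3a16 and Cyp3a41a, and in 0.384% of all 32851 RefSeq promoters of that length. It began 109, 99 and 95 bases before the start. These 3 promoters are 72.9% to 91.3% identical to each other, so their matches are not independent of one another. In Cyp3a44 the aligned stretch reads CAAAGTACA, a change of C7A with the Cyp3a41a base first and positions counted from 1 in the motif. ATCAAT was found in Cyp3a16, Cyp3a41a and Cyp3a44, whose promoters are also alike, and in 6.72% of all promoters. AGGTCA, a half-site of nuclear receptors, was found in Cyp3a11, Cyp3a25 and Cyp3a44 (14% of all promoters) and AGTTCA in Cyp3a11 and Cyp3a41a (11.8%). TTCNNNGAA, the core bound by STAT factors, was in none of the 6, against 7.02% of all promoters. In the 6 promoters no match of one motif overlapped a match of another, and a match describes letters, not a measured binding site.

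No Cyp3a transcript differed between GLU+GAL and GLU livers beyond the spread between mice. In limma's fit over all 24 arrays, 0 of 6 members passed an adjusted p of 0.05 (Benjamini-Hochberg over 18634 genes), and 0% of all genes did, with a lowest adjusted p of 0.522 among them. At an unadjusted p under 0.05, limma called 802 genes, 4.3% of those tested, and again 0 of the 6 members. Without GLU+GAL 3 alone, 3 members had an unadjusted p under 0.05 in limma, Cyp3a11 (p = 0.047), Cyp3a16 (p = 0.028) and Cyp3a41a (p = 0.024), each with an adjusted p of 0.998, where 849 genes did. Within slide 2 alone, 5 members did, all but Cyp3a25, with adjusted p from 0.420 to 0.564, where 1630 genes did. Within slide 3 alone Cyp3a25 did (p = 0.019), and without GLU+GAL 9 Cyp3a13 did (p = 0.041), neither past the adjusted threshold of limma. The mean was higher in GLU+GAL for 5 members and lower for Cyp3a13. In bulk liver, fewer cells of a type and less RNA per cell cannot be told apart.

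Cyp3a44 gave the largest difference with the widest interval. Its log2 ratio ran between -2.79 and 0.40 with a median of -0.28 in GLU+GAL livers, against -2.87 to 0.03 with a median of -0.43 in GLU livers. The ranges overlapped nearly whole. The mean was -0.43 ± 0.87 in GLU+GAL and -0.78 ± 0.98 in GLU (SD, n = 12 each), a log2 difference of 0.35 ± 0.34 (SE, adjusted p = 0.999 in limma). The 95% interval of the fold was 0.782 to 2.08.

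Cyp3a16 ran between -1.18 and 0.83, median 0.23, in GLU+GAL livers and between -1.42 and 0.58, median 0.12, in GLU livers. The difference was 0.32 ± 0.22 (SE, n = 12 each, adjusted p = 0.999 in limma), a fold of 1.25. Of the 12 GLU+GAL mice 11 were above the GLU mean, while the medians differed by less than the SD of either diet. That mean, -0.10, lay below the GLU median, with GLU 7 at -1.002 and GLU 12 at -1.42.

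Cyp3a41a ran between -1.29 and 0.50, median 0.08, in GLU+GAL livers and between -1.29 and 0.30, median -0.07, in GLU livers, a difference of 0.27 ± 0.19 (SE). Cyp3a11 ran between -0.65 and 0.91, median 0.45, in GLU+GAL livers and between -0.67 and 0.78, median 0.36, in GLU livers, a difference of 0.21 ± 0.17 (SE). Both pairs of ranges overlapped, and both had an adjusted p of 0.999 in limma. The 95% interval of the Cyp3a11 fold, 0.909 to 1.46, includes equality of the diets.

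Cyp3a25 ran between -0.41 and 0.77, median 0.18, in GLU+GAL livers and between -0.32 and 0.50, median 0.17, in GLU livers, a difference of 0.12 ± 0.12 (SE). Cyp3a13 ran between -0.37 and 0.46, median -0.12, in GLU+GAL livers and between -0.33 and 0.49, median 0.02, in GLU livers, a difference of -0.13 ± 0.09 (SE). These 2 were the narrowest members and again overlapped, with an adjusted p of 0.999 for each in limma. The other 2 Cyp3a genes on the array with a measured probe, Cyp3a57 and Cyp3a59, differed by 0.11 ± 0.12 and 0.24 ± 0.15 (SE), also without passing.

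**Figure D1:**
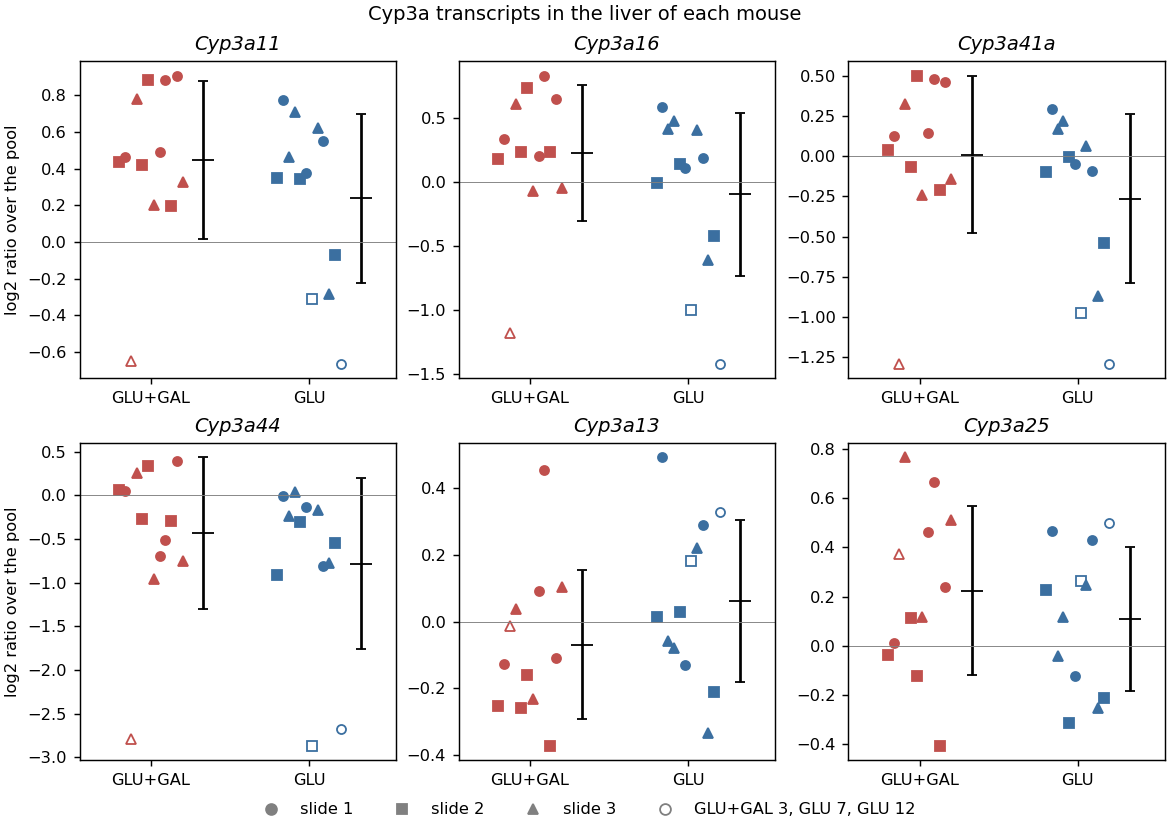
Log2 ratio over the pool (vertical axis) of each of 6 Cyp3a transcripts in every mouse, GLU+GAL left of GLU, with slides as marker shapes and mean ± SD as bars (n = 12 each). The 3 open markers, GLU+GAL 3, GLU 7 and GLU 12, lie between -2.87 and -2.67 for Cyp3a44, apart from the other 21 mice, and the diets overlap in every panel.

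The sign of the difference was not the same within all slides. For Cyp3a11 it was 0.43, 0.41 and -0.21 within slides 1, 2 and 3. For Cyp3a16 it was 0.64, 0.67 and -0.34, for Cyp3a41a 0.59, 0.47 and -0.24, and for Cyp3a44 0.71, 1.11 and -0.77. For Cyp3a25 slide 2 had the other sign (0.03, -0.10 and 0.43) and for Cyp3a13 slide 3 did (-0.17, -0.27 and 0.038). On slide 3, GLU+GAL 3 was at -0.65 for Cyp3a11, -1.18 for Cyp3a16, -1.29 for Cyp3a41a and -2.79 for Cyp3a44. In the same order, the other GLU+GAL mice there ran from 0.20 to 0.78, -0.07 to 0.61, -0.24 to 0.32 and -0.96 to 0.26. The part of this mouse in the sign within slide 3 was not tested. The 3 mice low in Cyp3a44 fell on different slides, GLU+GAL 3 on slide 3, GLU 7 on slide 2 and GLU 12 on slide 1. Without these 3 mice, left out after their values were seen, the differences of Cyp3a44, Cyp3a16, Cyp3a41a and Cyp3a11 were 0.17 ± 0.17, 0.23 ± 0.14, 0.22 ± 0.13 and 0.16 ± 0.12 (SE), with adjusted p from 0.998 to 0.999 in limma. Without the array labelled GLU+GAL 12 they were 0.38, 0.35, 0.29 and 0.22.

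**Figure D2:**
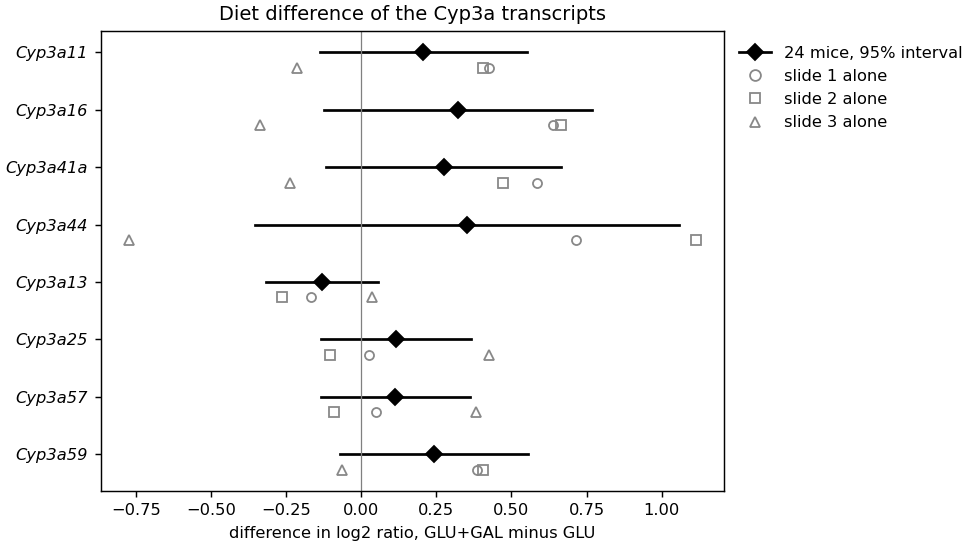
Difference in log2 ratio, GLU+GAL minus GLU (horizontal axis), for 6 Cyp3a members and for Cyp3a57 and Cyp3a59, over 24 mice with the 95% interval of limma (diamonds) and within each slide (open grey markers). All 8 intervals cover 0, and within slide 3 Cyp3a44 lies at -0.77 while slides 1 and 2 give 0.71 and 1.11.

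The genes that drive or serve the family did not pass either, and lists are given by their counts. Among 20 regulators 0 passed the adjusted threshold, and at an unadjusted p under 0.05 0 were higher and 2 lower in GLU+GAL, with a median log2 difference of -0.07. Over all genes 1.65% were higher and 2.66% lower at that level, and the median was 0.0012. Nr1i2 differed by -0.04 ± 0.06, Nr1i3 by 0.09 ± 0.10, Rxra by -0.06 ± 0.08 and Hnf4a by -0.16 ± 0.07 (SE, n = 12 each). The last had an unadjusted p of 0.023 and an adjusted p of 0.999 in limma. The largest differences among regulators were those of Onecut1 (HNF6), -0.82 ± 0.43, and Cux2, a female-predominant repressor of male-biased genes, -0.35 ± 0.21 (SE), neither past the threshold.

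Among 7 electron donors 0 of 7 passed at either level, median 0.0088. Por differed by -0.13 ± 0.14 and Cyb5b, a cytochrome b5, by -0.08 ± 0.07 (SE). Among PXR and CAR targets 23 of 28 were measured, 0 higher and 1 lower at an unadjusted p under 0.05, with a median of 0.01. Cyp2c29, a P450 that CAR induces, had the lower value, -0.28 ± 0.09 (SE, adjusted p = 0.984 in limma), with 11 GLU+GAL and 12 GLU arrays because 1 spot was flagged as an outlier. Gadd45b, a stress-response gene, differed by -0.28 ± 0.15 (SE).

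Female-predominant genes other than Cyp3a gave 1 higher and 2 lower of 25 at an unadjusted p under 0.05 in limma, median -0.05. Male-predominant genes gave 0 higher and 7 lower of 23 measured, median -0.17. Of all genes 1.65% were higher and 2.66% lower at that level. Sult1e1, an oestrogen sulfotransferase, was at 1.17 ± 0.40 and Sult2a1, a steroid and bile acid sulfotransferase, at 0.72 ± 0.57 in the diet difference. Of male-predominant genes, Hsd3b5, a steroid dehydrogenase, was at -0.45 ± 0.36 and Slco1a1, an anion transporter, at -0.38 ± 0.30. Growth hormone axis genes gave 0 higher and 2 lower of 13, median -0.10, with Socs2, an inhibitor of growth hormone signalling, at -0.78 ± 0.37 (SE). Neonatal liver genes gave 0 of 11 measured in either direction, median 0.03, with Cdkn1c at 0.17 ± 0.09 and Tff3 at -0.17 ± 0.44. No gene of these lists passed the adjusted threshold.

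No cell type marker passed the adjusted threshold between diets. At an unadjusted p under 0.05 in limma, 1.65% of all genes were higher and 2.66% lower in GLU+GAL. Of 12 hepatocyte markers 0 were higher and 7 lower in GLU+GAL at an unadjusted p under 0.05, median -0.15, and the mean of the list per mouse ran from 0.03 to 0.36 in GLU+GAL and from 0.15 to 0.53 in GLU. Of 11 Kupffer cell markers 0 were higher and 6 lower, median -0.21, with means per mouse from -0.57 to 0.31 in GLU+GAL and from -0.15 to 0.75 in GLU. Acute-phase genes gave 0 higher and 11 lower of 17, median -0.22. Pericentral and periportal lists had medians of -0.0053 and 0.0081 with 0 genes past an unadjusted p of 0.05 in either, and endothelial, stellate and cholangiocyte lists had medians of 0.0019, 0.0060 and 0.06 with 0 genes. Of small intestine, kidney and adrenal, and muscle markers 1, 2 and 4 passed the filter, and 0 of these differed at that level. The part of cell composition in the Cyp3a values was not tested.

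The family varied widely between mice. The SD of Cyp3a44 over 24 mice was 0.92, and 0.204% of all genes had a larger one. Cyp3a16 followed with 0.59, Cyp3a41a with 0.52, Cyp3a11 with 0.45, Cyp3a25 with 0.32 and Cyp3a13 with 0.24. The median SD over all genes was 0.17. The shares of genes with a larger SD were 0.714%, 1.14%, 1.71%, 6.18% and 17.1% for these 5. All 6 members therefore varied more than the median gene, and Cyp3a13 least. The order held only with the 3 mice described next: without them the SD was 0.36 for Cyp3a16, 0.33 for Cyp3a41a, 0.33 for Cyp3a25, 0.31 for Cyp3a11 and 0.24 for Cyp3a13.

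The spread of Cyp3a44 rested on 3 mice. Its log2 ratio was -2.79 in GLU+GAL 3, -2.87 in GLU 7 and -2.67 in GLU 12, and between -0.96 and 0.40 in the other 21 mice, a gap of 1.71. The Cy5 mean signal of the same spot was 659 in GLU+GAL 3, 502 in GLU 7 and 680 in GLU 12, against 2740 to 8678 in the other 21. The signal was well above background in all 3. Without these mice the SD of Cyp3a44 was 0.42 and 2.18% of genes had a larger one.

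The same 3 mice were also the lowest in 3 further members. Cyp3a16 was -1.18 in GLU+GAL 3, -1.002 in GLU 7 and -1.42 in GLU 12, with the next mouse, GLU 10, at -0.61. Cyp3a41a was -1.29, -0.98 and -1.29 in the same order, with GLU 10 at -0.87. Cyp3a11 was -0.65, -0.31 and -0.67, with GLU 10 at -0.28. In these 3 members the low mice joined the range of the rest with gaps of 0.39, 0.10 and 0.03, so that only Cyp3a44 left a wide gap.

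Cyp3a25 and Cyp3a13 did not share this. Cyp3a25 was 0.37 in GLU+GAL 3, 0.26 in GLU 7 and 0.50 in GLU 12, and Cyp3a13 was -0.01, 0.18 and 0.33, all inside the range of the other 21 mice. Their lowest mouse was GLU+GAL 10, at -0.41 for Cyp3a25 and -0.37 for Cyp3a13. Cyp3a59 was -0.76, -0.62 and -0.74 in the 3 mice, with GLU 10 at -0.70 between them.

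**Figure D3:**
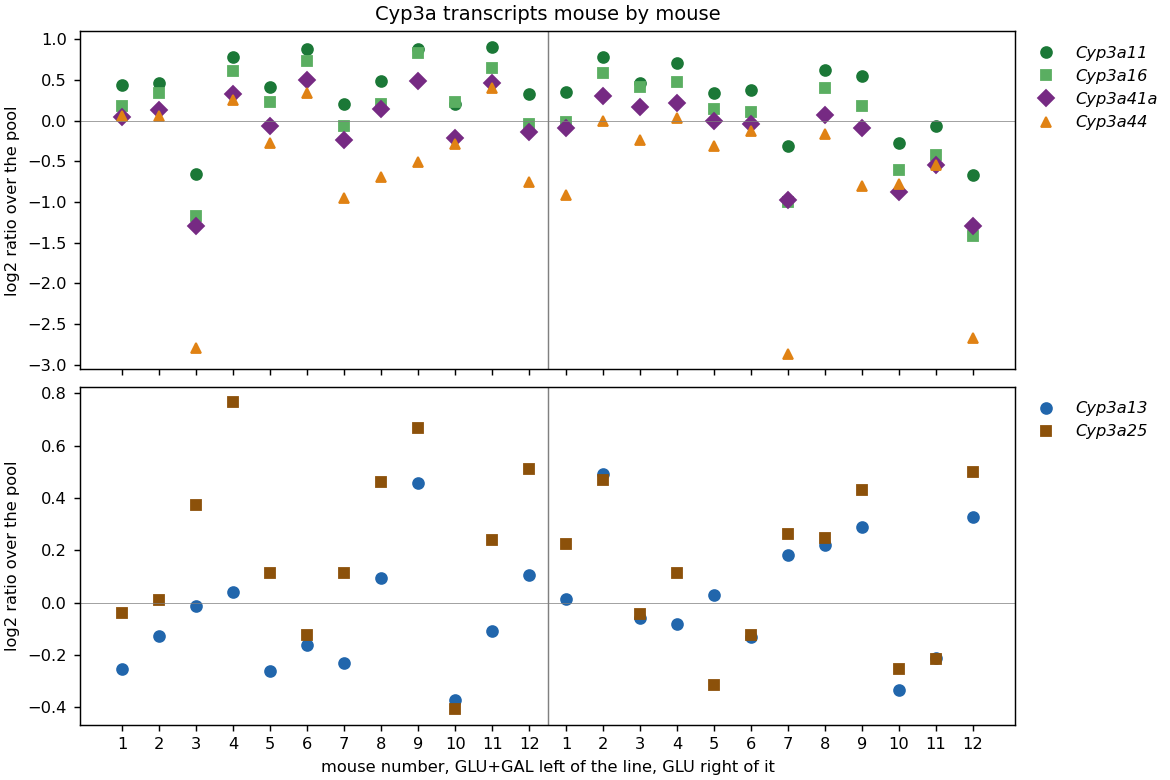
Log2 ratio over the pool (vertical axis) of the members in each of 24 mice (horizontal axis, mouse number), GLU+GAL left of the line and GLU right of it, with Cyp3a11, Cyp3a16, Cyp3a41a and Cyp3a44 in the upper panel and Cyp3a13 and Cyp3a25 in the lower. Cyp3a44 lies at -2.79, -2.87 and -2.67 in GLU+GAL 3, GLU 7 and GLU 12, where Cyp3a25 is between 0.26 and 0.50.

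In other sex-biased and marker genes the 3 mice stood together in some and apart in others, and the genes of this paragraph and the next are named after their values were seen. Xist was well above background and Eif2s3y was not in all 3. The mean over 25 female-predominant genes was -0.34 in GLU+GAL 3, -0.85 in GLU 7 and -0.20 in GLU 12, within a range over mice of -0.85 to 0.24, of which GLU 7 was the lowest. Hsd3b5, male-predominant, was -2.09 in GLU+GAL 3, 1.39 in GLU 7, the highest of all mice, and -2.13 in GLU 12. Mup20, a male-predominant urinary protein, was -0.37, 1.81 and -0.16 in the same order, against 0.01 to 0.84 in the other 21. Sult2a1 was -1.47, -3.87 and -0.57, and A1bg, a female-predominant plasma protein, 0.94, -1.92 (not well above background) and 1.29.

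Tff3, a secreted trefoil peptide, was 2.04 in GLU+GAL 3, 0.41 in GLU 7 and 2.44 in GLU 12, the 3 highest values, against -2.14 to 0.0036 in the other 21. Nr1i3 was -0.49, 0.18 and -0.71, so that the lowest and next lowest mouse for this receptor were GLU 12 and GLU+GAL 3, and the other 21 lay between -0.12 and 0.50. Nr1i2 was 0.06, -0.14 and -0.09, inside the range of -0.31 to 0.27 in the others, and Por was 0.41, 0.77 and 0.09, inside -0.40 to 0.89. GLU 7 was thus among the 3 lowest, with the other 2, in Cyp3a44, Cyp3a16, Cyp3a41a and Cyp3a11. The same held, as given further on, for Sult3a1, Cyp2b13 and Gbp5, and it was among the 3 highest in Tff3. By value it lay nearer to GLU 8 (0.0036) than to the other 2 in Tff3, and nearer to GLU 10 (-0.28) in Cyp3a11. GLU 7 stood away from the other 2 in Hsd3b5, Mup20, A1bg and Nr1i3. The array labelled GLU+GAL 12 was not among the 3, with a Cyp3a44 ratio of -0.76.

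Across mice the members fell into sets that varied together. Because the 3 low mice form a cluster apart in Cyp3a44, correlations are given over the other 21 mice, with permutation tests of 100000 resamples, 2-sided, adjusted over 15 pairs. The smallest p these can give is 1e-05. Over all 24 mice 7 of 15 pairs passed an adjusted p of 0.05 by Pearson's r and 7 by Spearman's rho, all positive. Over the 21 mice 13 passed by r and 9 by rho, all positive, and the passes gained there depend on the choice of mice.

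Cyp3a11, Cyp3a16 and Cyp3a41a varied together almost mouse by mouse. Pearson's r was 0.968 for Cyp3a11 with Cyp3a41a (rho 0.934), 0.963 for Cyp3a16 with Cyp3a41a (rho 0.922) and 0.956 for Cyp3a11 with Cyp3a16 (rho 0.908), each with a permutation p of 1e-05 and an adjusted p of 5e-05. Without the 2 mice farthest from the median r was 0.936, 0.928 and 0.913. Within GLU+GAL it was 0.984, 0.929 and 0.927 and within GLU 0.955, 0.978 and 0.973 in the same order. Within slides it ran from 0.894 to 0.990. These 3 probes share few letters with each other, with a longest common run of 6 bases, while the Cyp3a11 probe is linked by the array to Cyp3a41a transcripts. The probes lie at different positions of their transcripts, so few shared letters do not tell whether a probe also binds its relatives. They were not aligned to the transcripts of the other genes, and shared signal was not tested.

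**Figure D4:**
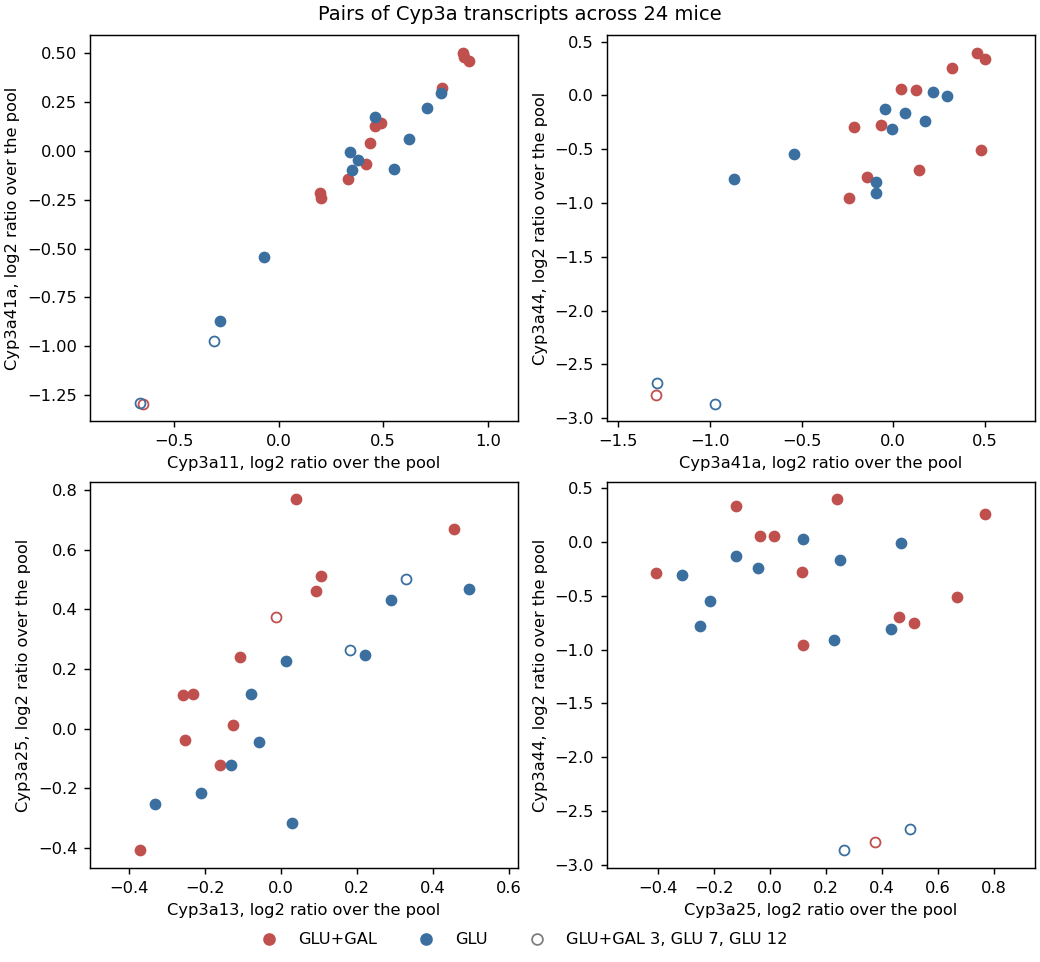
Log2 ratio over the pool of one member against another, each point 1 of 24 mice, coloured by diet, with GLU+GAL 3, GLU 7 and GLU 12 as open markers. Cyp3a11 and Cyp3a41a follow a line (r 0.968 over the other 21 mice), Cyp3a13 and Cyp3a25 (0.733) and Cyp3a41a and Cyp3a44 (0.641) scatter more, and r is -0.05 for Cyp3a25 and Cyp3a44.

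Cyp3a44 followed these 3 less closely. Over all 24 mice its r was 0.897 with Cyp3a16, 0.878 with Cyp3a41a and 0.850 with Cyp3a11 (adjusted permutation p = 2.5e-05 each). Among those 3 genes r was 0.977 to 0.986 over 24 mice. The 3 mice left out below are the lowest in Cyp3a44 itself, so r over the other 21 covers a narrower range of it. Over the 21 mice r was 0.663 with Cyp3a16 (rho 0.692, adjusted permutation p = 0.0022), 0.641 with Cyp3a41a (rho 0.718, adjusted permutation p = 0.0028) and 0.616 with Cyp3a11 (rho 0.617, adjusted permutation p = 0.0054). Without the 2 farthest mice it was 0.672, 0.656 and 0.598. It was 0.646, 0.625 and 0.626 within GLU+GAL and 0.692, 0.665 and 0.60 within GLU. Within slide 1 it was lower, at 0.336, 0.423 and 0.306, than within slide 3, at 0.857, 0.782 and 0.830, with 7 mice on each, and that difference was not tested.

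Cyp3a13 and Cyp3a25 formed the other close pair, with r 0.733 and rho 0.752 over the 21 mice (adjusted permutation p = 0.00056) and 0.671 without the 2 farthest. It was 0.837 within GLU+GAL, 0.835 within GLU, and 0.850, 0.292 and 0.663 within slides 1, 2 and 3. Over 24 mice it was 0.742. Neither of these genes passed the test with Cyp3a44 over the 21 mice, where r was -0.07 for Cyp3a13 (rho -0.07, adjusted permutation p = 0.80) and -0.05 for Cyp3a25 (rho -0.02, adjusted permutation p = 0.84).

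Between the sets the relation changed with the 3 low mice and with the normalisation. With Cyp3a11, r was 0.578 for Cyp3a25 (rho 0.584, adjusted permutation p = 0.010) and 0.558 for Cyp3a13 (rho 0.546, adjusted permutation p = 0.014) over 21 mice, and 0.145 and 0.126 over 24, where neither passed. With Cyp3a41a it was 0.482 for Cyp3a25 and 0.475 for Cyp3a13, and with Cyp3a16 0.449 and 0.468, with adjusted permutation p from 0.040 to 0.047 by r and from 0.065 to 0.12 by rho. Over 24 mice these 4 lay between 0.01 and 0.06. With median centring in place of loess, over 24 mice, r was 0.462 for Cyp3a11 with Cyp3a13, which passed (adjusted permutation p = 0.041), 0.443 for Cyp3a11 with Cyp3a25, and between 0.332 and 0.380 for the other 4, which did not. Within slide 2 without GLU 7, over 7 mice, r with Cyp3a16 was -0.0069 for Cyp3a25 and -0.09 for Cyp3a13. With Cyp3a41a it was 0.168 for Cyp3a25 and 0.189 for Cyp3a13. Over all 8 mice of slide 2, r with Cyp3a16 was -0.422 for Cyp3a25 and -0.575 for Cyp3a13. With Cyp3a41a it was -0.302 and -0.412, so the sign there turned with GLU 7.

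**Figure D5:**
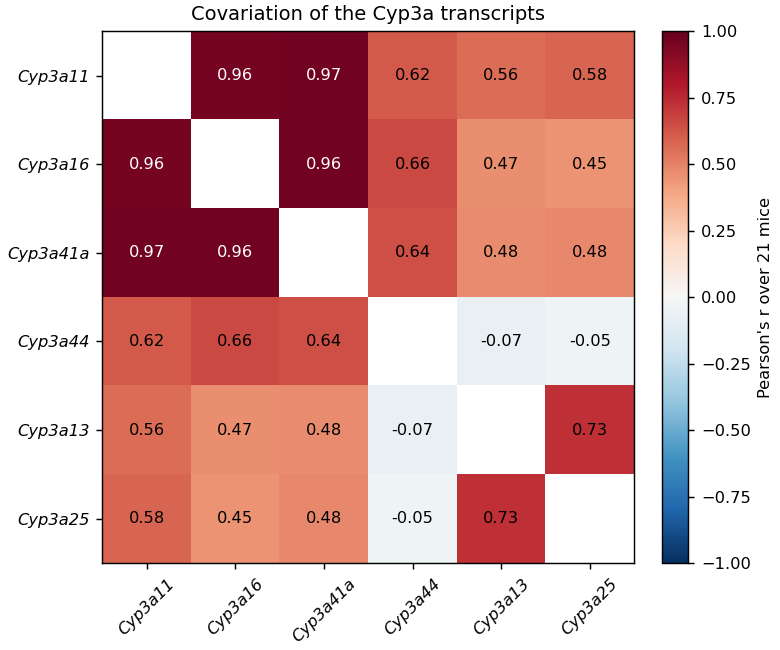
Pearson's r of the log2 ratios for each pair of members over 21 mice (colour and number). Cyp3a11, Cyp3a16 and Cyp3a41a lie between 0.96 and 0.97 with each other, and Cyp3a44 is at -0.07 and -0.05 with Cyp3a13 and Cyp3a25.

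The measured relatives outside the 6 were each closest to one set and correlated with both, over 13 further pairs adjusted together, of which 12 passed by r. Cyp3a57 had r 0.976 with Cyp3a25 (rho 0.987, adjusted permutation p = 3.3e-05), where 49 of 52 aligned probe bases are identical, and -0.03 with Cyp3a44 (rho -0.04, adjusted permutation p = 0.91). With Cyp3a13 its r was 0.789, with Cyp3a59 0.745, with Cyp3a11 0.618, with Cyp3a41a 0.529 and with Cyp3a16 0.512, and the highest adjusted permutation p of these 5 was 0.019. Cyp3a59 had r 0.967 with Cyp3a11, 0.942 with Cyp3a41a and 0.938 with Cyp3a16 (rho 0.962, 0.887 and 0.871, adjusted permutation p = 3.3e-05 each). It had 0.687 with Cyp3a25, whose promoter is 94.8% identical to its own, 0.640 with Cyp3a13 and 0.518 with Cyp3a44, which also passed. The Cyp3a59 probe shares a run of at most 6 bases with any other Cyp3a probe shown here, but was not aligned to the transcripts of the other genes.

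The genes most like each member over all 24 mice, among 14615 genes with a symbol outside the family, are given as a description with no test. For Cyp3a44 they were Sult3a1, a female-predominant sulfotransferase (r 0.883), Gbp5, an interferon-induced GTPase (0.810), and Gm6135 (0.780). Over the 21 mice the same 3 were at 0.425, 0.573 and 0.346, so each was lower without the 3 low mice. Sult3a1 was -2.92 in GLU+GAL 3, -2.75 in GLU 7 and -3.66 in GLU 12, against -1.29 to 0.39 in the others. Cyp2b13, a female-predominant P450, was -1.20, -1.74 and -1.08, also the 3 lowest, against -0.71 to 0.91. Gbp5 was -0.73, -0.60 and -0.66, again the 3 lowest, against -0.32 to 0.79.

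For Cyp3a11 the most alike were Gbp5 (0.879), Cyp2b13 (0.846) and Ces1g, a carboxylesterase (0.785), at 0.750, 0.703 and 0.564 over the 21 mice. For Cyp3a16 and Cyp3a41a they were Gbp5 (0.848 and 0.843), Cyp2b13 (0.846 and 0.828) and Sult3a1 (0.828 and 0.789), with Sult3a1 at 0.334 and 0.273 over the 21. Over the 21, Gbp5 was at 0.672 and 0.658 and Cyp2b13 at 0.635 and 0.611 with Cyp3a16 and Cyp3a41a. Over 24 mice the 3 covarying members thus shared Gbp5 and Cyp2b13 as their nearest genes outside the family, and the ranking was not repeated over the 21.

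Cyp3a25 and Cyp3a13 had other neighbours, and theirs held over the 21 mice. For Cyp3a25 they included Suclg2, a subunit of succinyl-CoA ligase (0.881, and 0.895 over 21), and Chpt1, which makes phosphatidylcholine (0.857 and 0.870). For Cyp3a13 they were Ndrg2 (0.845 and 0.830), the actin-bundling Pls3 (0.823 and 0.838) and the phosphodiesterase Pde3b (0.805 and 0.812). None of the genes named for their likeness passed the threshold between diets, with limma differences from -0.06 to 0.34.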

How the data were processed

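Liver RNA of 24 mice was measured on 2-colour Agilent arrays, 1 per mouse, 12 fed GLU+GAL and 12 fed GLU. The authors deposited scanner files with spot intensity values in both channels, from Agilent Feature Extraction (version 10.7.3.1 in the submitters' processing notes). They also deposited a series table of log2 values for 29287 spots, of unstated scaling. The log10 ratio column deposited in the scanner files was not used, and no column of per-sample values was left out (0 of 24).

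The local background was taken off the mean signals by normexp (offset 50), and log2 ratios were normalised by loess within arrays, controls at weight 0, in limma 3.58.1 (R 4.3.3, data.table, version 1.17.8). Outlier-flagged spots were left out. Of 56605 probes, 26675 were well above background in Cy5 on at least 6 arrays of 1 diet, which gave 18634 genes at 1 probe per gene, 14623 with a symbol found in a RefSeq gene table. The diet difference is GLU+GAL minus GLU, by lmFit and eBayes, 2-sided, adjusted by Benjamini-Hochberg over all genes. Pairs of members were tested with 100000 permutations, and within single slides with all possible permutations. Promoters were aligned in Biopython 1.88 (Python 3.11.15), and figures were drawn in matplotlib 3.10.9. The fit and the permutation test were tested on simulated data. The number of arrays limits the precision.

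Named genes were the 6 members, the other measured Cyp3a genes, the 3 genes most like each member, the 2 largest diet differences of each list, and Por, Nr1i2, Nr1i3, Rxra and Hnf4a. One result under this rule is not reported here. The members, lists and tests were chosen with earlier results of these data known. Alternatives covered normalisation, the deposited table, filters, slide and replicate blocks, single slides, variance models and arrays left out.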

Additional observations from a re-analysis of the deposited data

Results flagged for a closer look

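Y-linked genes take no part in the comparisons, but the array labelled GLU+GAL 12 gave a Cy5 signal of 452.4 for Eif2s3y, against 39 to 60.3 on the other 23 arrays. Relative to the median of each array, its signal was 9.5 times the mean of the others, above all 12 GLU arrays. Its Cyp3a44 ratio was -0.76, and it was not among the 3 mice low in that gene.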

How the results depend on the processing

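No member passed the adjusted threshold of limma under any alternative run, and with single arrays left out the difference kept its sign: 0.12 to 0.31 for Cyp3a11, -0.18 to -0.09 for Cyp3a13, 0.20 to 0.45 for Cyp3a16, 0.07 to 0.17 for Cyp3a25, 0.18 to 0.39 for Cyp3a41a and 0.16 to 0.57 for Cyp3a44. The sign turned only within slides: to -0.10 within slide 2 for Cyp3a25, and within slide 3 to -0.21 for Cyp3a11, 0.038 for Cyp3a13, -0.34 for Cyp3a16, -0.24 for Cyp3a41a and -0.77 for Cyp3a44. The cause was not tested. The number of genes past the threshold was 0 in all settings except without GLU replicate 3, where Zfp787 passed (range 0 to 1).

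Pairs of members with a positive r past the threshold numbered 7 over 24 mice, 7 with each array left out in turn, 8 with median centring, where Cyp3a11 with Cyp3a13 was gained, 4 within slide 1, 6 within slide 2, 6 within slide 3, and 13 without GLU 7, GLU 12 and GLU+GAL 3, a setting chosen after seeing the data. Cyp3a13 with Cyp3a25 did not pass within slides 2 and 3, with adjusted permutation p of 0.246 and 0.151. Pairs between the sets, from -0.275 to 0.145 over 24 mice, changed sign in some settings. For Cyp3a13 with Cyp3a44 and Cyp3a25 with Cyp3a44, r was 0.094 and 0.059 with median centring and 0.157 and 0.031 within slide 3. With Cy5 alone r was -0.041 for Cyp3a13 with Cyp3a41a, -0.0503 for Cyp3a16 with Cyp3a25 and -0.0028 for Cyp3a25 with Cyp3a41a. Within slide 1 it was -0.051 for Cyp3a11 with Cyp3a13, -0.072 for Cyp3a13 with Cyp3a16, -0.139 for Cyp3a13 with Cyp3a41a, -0.039 for Cyp3a16 with Cyp3a25 and -0.063 for Cyp3a25 with Cyp3a41a. Within slide 2, over all 8 of its mice, it was -0.369 for Cyp3a11 with Cyp3a13, -0.185 for Cyp3a11 with Cyp3a25 and -0.575 for Cyp3a13 with Cyp3a16. It was -0.412 for Cyp3a13 with Cyp3a41a, -0.422 for Cyp3a16 with Cyp3a25 and -0.302 for Cyp3a25 with Cyp3a41a there. For Cyp3a16 with Cyp3a25 it was -0.0602 without both GLU+GAL 4 and GLU+GAL 12, -0.035 with diet means removed and -0.086 within GLU, and for Cyp3a25 with Cyp3a41a -0.014 without both arrays and -0.063 within GLU. With single arrays left out it ran from -0.117 to 0.208 for Cyp3a13 with Cyp3a16, from -0.059 to 0.232 for Cyp3a13 with Cyp3a41a, from -0.081 to 0.167 for Cyp3a16 with Cyp3a25 and from -0.025 to 0.20 for Cyp3a25 with Cyp3a41a.

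With the replicate number as a block, 0 genes passed and the differences were as reported, since each number holds both diets, with an adjusted p of 0.897 for Cyp3a16 and 0.866 for Cyp3a13. The SE of Cyp3a13 was 0.066 with this block and 0.091 without it, and 1122 genes had an unadjusted p under 0.05 in limma, against 802. The 12 same-numbered pairs had correlations of their deviations from -0.38 to 0.52, median 0.16, 8 of them over 0.1. Of 12 GLU mice 2 correlated best with their own number. These values do not settle whether the numbers pair the mice. No other probe of a member exists on the array, so no other probe was tried.

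The limits are 1 array per mouse, 12 mice per diet, probes that name several Cyp3a genes, and a pool with no dye swap.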
